A study of Drosophila melanogaster with 12 samples.

Results

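The late hormone response of CP190-depleted cells was read from 4 arrays out of the 12 of the series: 2 biological replicates of Kc cells that received RNAi against CP190 and 48 h of 20-hydroxyecdysone (20HE), and 2 replicates with the same RNAi and no hormone (0 h). All 16637 transcripts of the array carry a FlyBase transcript identifier (FBtr), and all of them are described. Kc is an embryonic Drosophila melanogaster line grown here in serum-free CCM3 medium. The other 8 arrays hold CP190 RNAi at 3 h of 20HE and control RNAi against beta-galactosidase, a bacterial enzyme, at 0, 3 and 48 h, again with 2 replicates each. All cells thus received double-stranded RNA. The dose of the hormone is not given in the sources used here, and the extraction protocol also names a second line, Mbn2, while every title names Kc.

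The steroid 20HE is the moulting hormone of insects. It binds a heterodimer of the nuclear receptors EcR and Usp, which first induces a small set of early genes. Several of these encode transcription factors that in turn raise or lower a much larger set of late genes. Kc cells are a long-used model of this cascade: under the hormone they change shape and stop dividing. CP190 is a BTB and zinc-finger protein found at chromatin insulators together with DNA-binding proteins such as CTCF, Su(Hw) and BEAF-32.

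Array medians lay between 1136 and 1227 intensity units, and a random-sequence control, which shows the background, lay between 412.6 and 425.1. Between 37.5 and 39.9% of transcripts on an array were within 1.5-fold of that control and are called near background below. At such levels part of the signal is background, and measured folds understate the change. The depletion of CP190 RNA and the markers of the cell line were not analysed here, since the identifiers of those transcripts are not paired with names. In RNA from bulk cultures, a change in the share of cells of a type and a change of RNA per cell cannot be told apart.

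After 48 h of hormone, 2096 transcripts rose (12.6% of those tested) and 2314 fell (13.9%), together 4410 or 26.5%, by limma with Benjamini-Hochberg adjustment at an adjusted p of 0.05. The replicates were not paired in this fit. Over all transcripts as deposited, rises and falls were close in number, while large rises outnumbered large falls. At 2-fold or more there were 605 rises (3.64%) and 275 falls (1.65%). At 4-fold or more there were 192 rises and 32 falls, and at 8-fold or more 64 rises and 5 falls. Transcripts near background have little room for a measured fall. Those that started 4 to 16-fold above the random control gave 176 rises and 141 falls of 2-fold or more. Those over 16-fold above it gave 62 rises and 108 falls, so the excess did not hold at every starting level. The median rise was 0.61 on the log2 scale and the median fall -0.53, and the middle 50% lay between 0.41 and 1.11 for rises and between -0.74 and -0.39 for falls. The most extreme changes of all transcripts were 6.12 and -3.87.

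Most transcripts moved little. Over all 16637 the median log2 change was -0.035, the middle 50% lay between -0.18 and 0.11, and the outer 1% on each side began at -1.17 and 2.11. The smallest rise past the threshold was 0.21 and the smallest fall -0.21. Of 10996 transcripts that moved by less than 0.25, 56 passed the test. Of 3025 that moved by 0.25 to 0.5, 1796 (59.4%) passed, and of 1736 that moved by 0.5 to 1, 1678 (96.7%). All 880 transcripts that moved by 1 or more passed. Among the 12227 transcripts that did not pass, the 95% interval of the change lay within 1.5-fold either way for 11371 (93.0%) and within 2-fold for 12158 (99.4%), so that changes above these sizes are bounded for most of them.

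**Figure D1:**
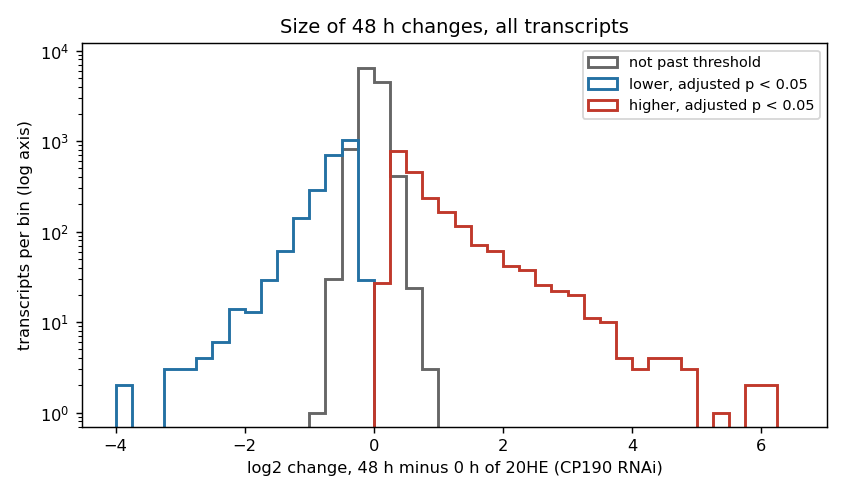
Histogram of the log2 change from 0 h to 48 h of 20HE in CP190 RNAi cells for all 16637 transcripts, in bins of 0.25, with a log axis for the number of transcripts. Lines are drawn separately for 2096 transcripts that rose (red), 2314 that fell (blue) and 12227 not past the threshold (grey); the red line reaches 6.12 and the blue line -3.87.

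The numbers of rises and falls depended on the scaling and on single arrays. Over all starting levels together, the excess of rises among changes of 2-fold or more held under the 18 alternatives tried. Centring each array on its median, which moved the median change of all transcripts from -0.035 to -0.101, gave 1744 rises and 3238 falls. Leaving out CP190 0 h replicate 2 gave 2815 calls with 1507 rises and 1308 falls, and leaving out CP190 48 h replicate 1 gave 1587 rises and 1358 falls. Over all 18 alternatives, rises of 4-fold or more numbered 176 to 212 and falls of that size 28 to 34. Rises of 2-fold or more numbered 549 to 638 and falls 252 to 360.

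The 2 largest rises came from transcripts near background before the hormone. FBtr0088368 had intensities of 500 and 486 at 0 h and 36558 and 32220 at 48 h, a log2 change of 6.12 ± 0.099 (SE). Both starting values were near background, so with the start set to the background limit of 1.5 times the random control this was at least 54.7-fold (limma adjusted p = 7.81e-12). FBtr0088367 went from 509 and 517 to 33793 and 33809, a log2 change of 6.04 ± 0.076 (at least 53.8-fold). Neither transcript could be tied to a gene name here, so whether the 2 belong to 1 gene is not known. At 3 h both were already at 6614 to 7946, between their 0 h and 48 h levels, with log2 changes from 0 h of 3.88 and 3.73. Their 48 h values were within 2-fold of the highest intensity on those arrays (64316 and 62194), where the end of the scanner's range can limit the signal.

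The 2 largest falls began at high levels. FBtr0084647 stood at 15324 and 10490 at 0 h and at 916 and 824 at 48 h, a log2 change of -3.87 ± 0.19 (14.6-fold lower, adjusted p = 4.59e-08). FBtr0082551 went from 12494 and 9832 to 802 and 733, a log2 change of -3.85 ± 0.16 (14.4-fold lower). The groups were far apart in both cases, and no value of either transcript in CP190 RNAi cells was near background. At 3 h FBtr0084647 was at 17953 and 13509 and FBtr0082551 at 10399 and 7831. Their 3 h changes of 0.30 and -0.30 did not pass the test (adjusted p = 0.998 for each).

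Calls and directions differed with the starting level. Transcripts were placed in 4 classes by their mean level at 0 h relative to the random control: near background (under 1.5-fold, 6357 transcripts), low (1.5 to 4-fold, 2859), middle (4 to 16-fold, 4326) and bright (over 16-fold, 3095). Of the near class 7.85% passed the test (499 of 6357), against 34.2% of the low, 40.3% of the middle and 38.4% of the bright class, beside 26.5% of all transcripts. Going up the classes, rises numbered 423, 538, 757 and 378, and falls 76, 439, 987 and 812. Rises of 2-fold or more numbered 142, 225, 176 and 62, while falls of that size numbered 0, 26, 141 and 108. The class limits restrict these falls, since a transcript under 1.5-fold above the random control has little room for a measured 2-fold fall. The largest falls were -0.62, -1.54, -2.71 and -3.87 from near to bright. The counts of falls by class are therefore not a result about direction in the lower classes.

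Because the class and the change share the 0 h arrays, an array that reads low at 0 h by error would both lower the class and enlarge the rise. The classes were therefore set again from the 0 h arrays of control RNAi cells, which do not enter the change. This does not remove the limit that background sets on measured falls. With these classes, 9.21% of 6572 near-background transcripts, 34.6% of 2650 low, 38.9% of 4323 middle and 39.0% of 3092 bright ones passed. Rises of 2-fold or more numbered 152, 221, 169 and 63 from near to bright and falls 6, 48, 129 and 92. The median rise of those that passed went from 0.63 in the near class to 0.87 in the low, 0.59 in the middle and 0.53 in the bright class. After centring each array, the near class of this second grouping held 382 rises and 393 falls in place of 453 and 152, and the low class 433 and 565 in place of 502 and 415. Quantile normalisation also left more falls than rises in the low class (470 rises, 502 falls), as did the replicate block (593 and 605). The middle class held 753 rises and 928 falls, which became 515 and 507 without CP190 0 h replicate 2 and 538 and 519 without CP190 48 h replicate 1. The balance of directions in these 3 classes is thus not settled. In the bright class falls outnumbered rises by 819 to 388 as deposited, 1034 to 301 after centring, 836 to 382 after quantile normalisation, and 449 to 246 and 485 to 260 without those same arrays. The largest rises in these classes were 6.12, 5.79, 5.29 and 2.22 from near to bright. The end of the scanner's range can limit measured rises in the bright class, and its part in this balance was not tested.

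**Figure D2:**
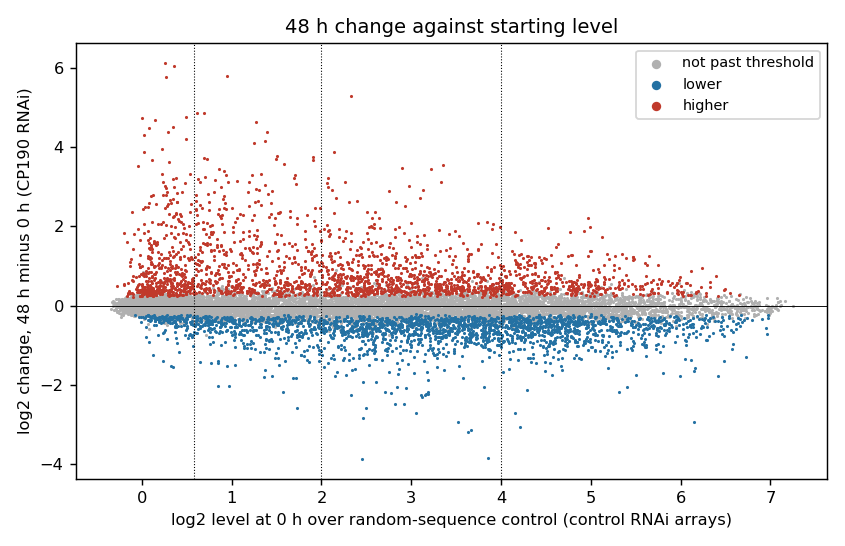
Log2 change from 0 h to 48 h in CP190 RNAi cells (vertical axis) against the log2 level over the random-sequence control at 0 h in control RNAi cells (horizontal axis), 1 point per transcript. Dotted lines mark 1.5-, 4- and 16-fold above the control; red points rose, blue points fell and grey points did not pass the test. The largest fall in the near-background class is -1.54 and that in the middle class -3.87.

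Full switches between silence and clear expression were rare. Of 6079 transcripts near background on both 0 h arrays, 67 were over 4-fold above the random control on both 48 h arrays. In the opposite direction 2 of 7261 transcripts went from over 4-fold above it to near background. On all 4 arrays 5612 transcripts stayed near background and 6828 stayed over 4-fold above it. Between classes, 298 rises led from the middle to the bright class, 277 from the low to the middle class and 248 from near background to the low class, while 315 falls led from bright to middle and 278 from middle to low. Another 378 rises and 491 falls stayed within the bright class.

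Replicate differences were small beside the large changes and similar in size to the small ones. The SD of the difference between replicates over all transcripts was 0.18 at 0 h and 0.18 at 48 h on the log2 scale, and the median SE of a change was 0.1, with 90% of SEs between 0.077 and 0.17. The spread depended on level. At 0 h the SD was 0.13 in the near class, 0.22 in the low, 0.21 in the middle and 0.19 in the bright class. It also grew with the change itself, from a median SE of 0.095 for changes under 0.25 to 0.14 for changes of 2 or more. More than 2-fold apart between replicates were 12 transcripts at 0 h and 6 at 48 h.

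Read separately by replicate number, the changes had the same sign in 12835 of 16637 transcripts (77.2%). Both 48 h arrays lay above both 0 h arrays for 4285 transcripts (25.8%), and both lay below for 5874 (35.3%), so arrays did not overlap for many more transcripts than passed the test. Every one of the 4410 transcripts past the threshold had arrays that did not overlap. The test used these same arrays and selects groups that lie apart, so this is not separate evidence of agreement. Of the 880 that changed at least 2-fold, the 2 replicate changes were within 1.5-fold of each other for 828 (94.1%) and over 2-fold apart for 7. Over all 16637 transcripts these numbers were 16550 (99.5%) and 9, so the replicate changes lay further apart among the large changes. Across the 12227 transcripts not past the threshold, the replicate changes correlated by 0.557, a description across transcripts that share arrays and are not independent. The labels' replicate numbers pair the samples by the rule used here, but the main fit leaves the number out. With that number as a block 5774 transcripts passed, 2580 higher and 3194 lower.

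**Figure D3:**
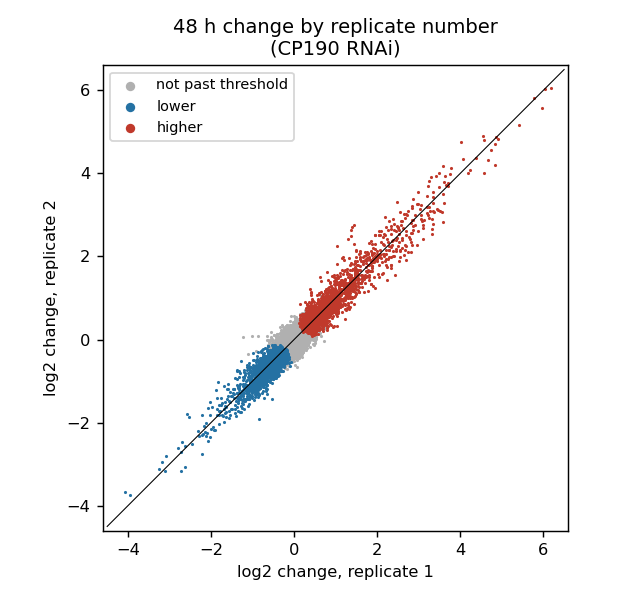
Log2 change from 0 h to 48 h in CP190 RNAi cells for replicate 1 (horizontal) and replicate 2 (vertical), 1 point per transcript, with the line of equality. Red points rose and blue points fell past the threshold; the grey points around 0 hold the transcripts whose replicate changes differ in sign.

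The 48 h arrays were also set against the 3 h arrays of the same cells, a comparison whose changes do not use the 0 h arrays. It shares the 48 h arrays and the spread estimate with the 48 h response. It called 2036 rises (12.2%) and 2359 falls (14.2%), 4395 or 26.4% together, with 550 rises and 255 falls of 2-fold or more. Leaving out CP190 48 h replicate 1 gave 2860 calls and leaving out CP190 3 h replicate 2 gave 2796. The 3 h response itself, which shares its 0 h arrays with the 48 h response, had 102 rises (0.613%) and 15 falls (0.0902%), together 117 or 0.703%. The replicate block raised that count to 229. Omitting either 0 h array lowered it to 65 (replicate 1) or 52 (replicate 2), and omitting either 3 h array to 58 (replicate 1) or 54 (replicate 2). The largest rise between 3 and 48 h was that of FBtr0082648, which read 799 and 783 at 0 h, 1222 and 1112 at 3 h and 43767 and 43963 at 48 h (48 h against 3 h 5.23 ± 0.17, adjusted p = 3.23e-09). FBtr0084169 followed, with 768 and 711, then 894 and 800, then 32747 and 25492 (5.09 ± 0.20). Their 3 h changes of 0.56 and 0.20 did not pass the test (adjusted p = 0.412 and 0.998). With the replicate block the first did (0.0436). The largest falls after 3 h were again FBtr0084647 (-4.16 ± 0.19) and FBtr0082551 (-3.56 ± 0.16).

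Of the 16 transcripts that could be tied to a single gene, 2 rose, 3 fell and 11 did not pass the test, beside 26.5% called among all transcripts. NaPi-III, a phosphate cotransporter gene, had the largest change of the 16. It read 8019 and 8492 at 0 h, 8734 and 9067 at 3 h, and 4213 and 4113 at 48 h, with no overlap. It fell by 0.99 ± 0.12 on the log2 scale (adjusted p = 5.89e-05). The gene sle, which encodes a nucleolar protein, read 23847 and 28680 at 0 h and 14374 and 17711 at 48 h and fell by 0.71 ± 0.12 (adjusted p = 7.36e-04). The 3 h changes of these 2 genes, 0.11 and -0.002, did not pass (adjusted p = 0.998 and 0.999).

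The gene mio encodes a part of the GATOR2 complex, which regulates the growth kinase TORC1. It read 1675 and 1751 at 0 h, 1835 and 2000 at 3 h and 2218 and 2279 at 48 h, and rose by 0.39 ± 0.081 (adjusted p = 0.00343). Wdr24, another GATOR2 gene, read 1299 and 1371 at 0 h and 1205 and 1399 at 48 h. Its change of -0.040 had a 95% interval from -0.32 to 0.24. The calls for NaPi-III, sle and mio held under all 18 alternatives, with adjusted p of at most 0.00108, 0.0109 and 0.0273.

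Among genes of chromatin, His4r, a replication-independent histone H4 gene, read 24740 and 25641 at 0 h and 30218 and 29630 at 48 h and rose by 0.25 ± 0.073 (adjusted p = 0.025). This call was lost under 6 of the 18 alternatives: after centring each array, with only the arrays compared, and without any single CP190 0 h or 48 h array (adjusted p of 0.0705 to 0.122). HDAC3, a histone deacetylase gene, read 5317 and 5966, then 4704 and 5406, and its change of -0.16 did not pass (95% interval -0.39 to 0.073). The trithorax-group helicase gene kis read 15735 and 15483, then 14992 and 16384 (interval -0.18 to 0.20). SuUR, which encodes a chromatin protein that slows replication of heterochromatin, read 5030 and 5975, then 6125 and 6321. Its arrays did not overlap, but the change of 0.18 did not pass (adjusted p = 0.253, interval -0.050 to 0.41).

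The changes of LanA, alpha-Spec, Uba1 and rdx did not pass the test. LanA, the laminin alpha chain gene, read 46571 and 47405 at 0 h and 47120 and 46959 at 48 h, with an interval from -0.17 to 0.17. The membrane skeleton gene alpha-Spec read 21094 and 19882, then 20473 and 19197 (interval -0.25 to 0.15). Uba1, which encodes the ubiquitin-activating enzyme, read 41164 and 39532, then 37597 and 40299 (interval -0.22 to 0.11). The Hedgehog pathway gene rdx, a Cullin adaptor, read 9570 and 8706, then 9765 and 7660 (interval -0.39 to 0.23). All 4 intervals exclude a change of 1.5-fold in either direction.

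Fatp1, a fatty acid transport protein gene, rose by 3 h and fell again by 48 h. It read 5448 and 5754 at 0 h, 12960 and 13124 at 3 h, and 5244 and 6246 at 48 h. It rose by 1.22 ± 0.13 at 3 h (adjusted p = 7.53e-04). From 3 to 48 h it fell by 1.19 ± 0.13 (adjusted p = 4.95e-05), and its 48 h level against 0 h differed by 0.032, with an interval from -0.26 to 0.33. Of the remaining 3 genes, CG31178 fell by 0.32 ± 0.11 (adjusted p = 0.0465), from 620 and 744 to 526 and 563. Both 48 h values were near background, so this is at least 1.10-fold, and the call was lost under 11 of 18 alternatives, among them quantile normalisation (adjusted p = 0.0638), only the arrays compared (0.0811) and leaving out CP190 0 h replicate 2 (0.345) or CP190 48 h replicate 1 (0.216). The genes fend (near background on all 4 arrays) and CG16974 had changes of -0.028 and 0.052.

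**Figure D4:**
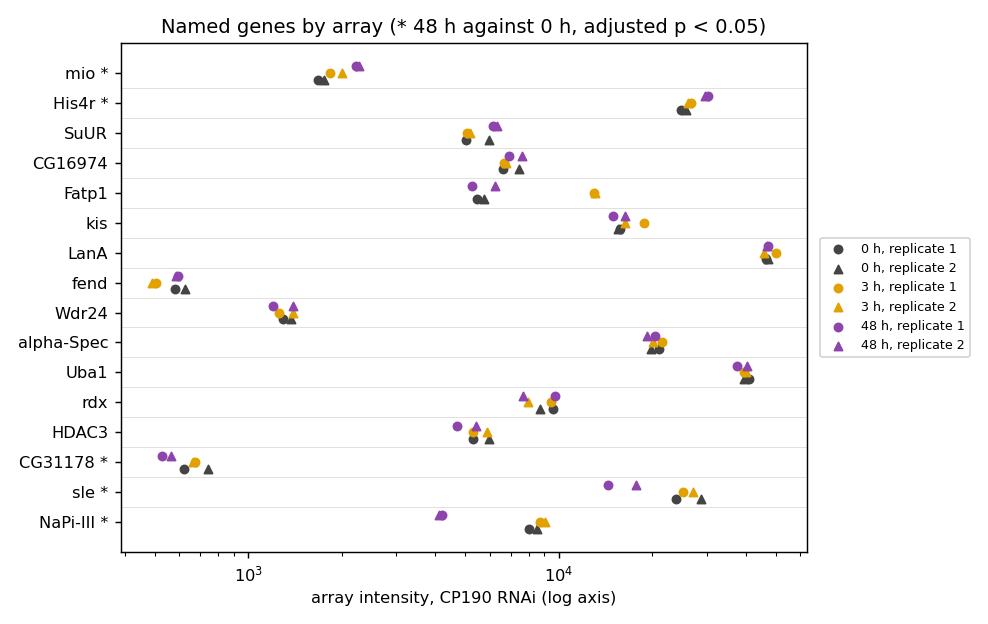
Array intensity (log axis) in CP190 RNAi cells at 0, 3 and 48 h of 20HE for the 16 transcripts tied to a single gene, 1 point per array, with circles for replicate 1 and triangles for replicate 2. Genes are ordered by their 48 h change, from mio at the top to NaPi-III at the bottom, and asterisks mark the 5 past the threshold; Fatp1 has its 3 h points at 12960 and 13124, apart from its other points.

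A further 28 transcripts are listed in the gene table under several genes whose synonyms name an upstream and a main reading frame of 1 messenger. The array gives a single value for such a messenger. They were looked at outside the naming rule, after their values had been seen. Of the 28, 9 fell, 1 rose and 18 did not pass, beside 13.9% of all transcripts that fell and 12.6% that rose, and their median change was -0.20, beside -0.035 for all transcripts. None of the 28 was near background on all 4 arrays. Nearly all started in the middle or bright class, where falls are more common than over all transcripts. In the middle class 22.8% fell and 17.5% rose, and in the bright class 26.2% fell and 12.2% rose. The largest fall was that of CG7950/Rpp14a, which holds a subunit gene of ribonuclease P: it went from 3399 and 3659 to 1858 and 1947 (-0.89 ± 0.11, adjusted p = 9.44e-05). CG33672/Mvk, with the gene of mevalonate kinase, went from 7395 and 8264 to 3867 and 4702 (-0.87 ± 0.12, adjusted p = 2.04e-04). ND-MNLL/CG45089, with a gene of respiratory complex I, went from 4065 and 5351 to 2408 and 3320 (-0.72 ± 0.16, adjusted p = 0.00612).

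The other falls in this set were smaller. The messenger of vnc, an N-terminal acetyltransferase gene, changed by -0.62. PIG-M and PIG-P, both of the pathway that builds GPI membrane anchors, sit on separate messengers that changed by -0.54 and -0.36. The messengers of CG8026, CG5116 and Tfb5, the last a subunit gene of TFIIH, changed by -0.46, -0.42 and -0.33. The rise was that of CG6191/CG45088, from 11411 and 9589 to 16319 and 13305 (0.49 ± 0.12, adjusted p = 0.00965). The calls for Rpp14a and Mvk held under all 18 alternatives. Each of the other 8 was lost when CP190 0 h replicate 2 was omitted and when CP190 48 h replicate 1 was (adjusted p of 0.0708 to 0.169), and that of Tfb5 also without either other array of the comparison. With the replicate block 4 of the 18 others passed as well: CG33995/CG44000/CG44001 with a change of 0.26 (adjusted p = 0.0159), CG30100/CG42372 with -0.33 (0.0104), CG42375/CG9288 with -0.30 (0.0101) and Mocs2A/Mocs2B, of molybdenum cofactor synthesis, with -0.32 (0.0113).

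The control RNAi arm shares no array with the response described so far and served as its closest comparison. In it, 28.3% of transcripts passed the test at 48 h. Of the 2096 rises after CP190 RNAi, 2014 (96.1%) had a change above 0 in control cells and 1560 (74.4%) rose there too, beside 13.1% of all transcripts that rose. Of the 2314 falls, 2216 (95.8%) had a change below 0 in control cells and 1660 (71.7%) fell there too, beside 15.3%. The median sizes ran in parallel. Transcripts with a CP190 change of 2 to 3 had medians of 2.37 in CP190 cells and 2.32 in control cells, and those above 3 had 3.54 and 3.25. On the falling side, changes of -1 to -1.5 had medians of -1.15 and -0.99, and changes of -2 to -3 had -2.23 and -1.94. Single transcripts could still differ: the difference of the responses, described below, passed for 100 of the 605 rises of 2-fold or more (16.5%). It passed for 55 of the 275 falls of that size (20.0%), beside 2.18% of all transcripts. These sets were chosen by their CP190 values, which favours the larger value in that arm.

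Tested directly, the difference of the 48 h responses passed for 363 transcripts (2.18%), 137 of them higher (0.823%) and 226 lower (1.36%) in CP190 cells. The count was 725 with the replicate block. It fell to 227 and 192 without control 48 h replicate 1 and 2, to 196 without CP190 0 h replicate 1 and to 239 without CP190 48 h replicate 2. Of the 137, 98 rose and 13 fell in CP190 cells and 26 passed in neither direction there. Of the 226, 101 fell, 56 rose and 69 did not pass. The 2 sets differed in where the arms stood apart. In the 137 the arms differed at the median by -0.098 at 0 h and by 0.76 at 48 h (CP190 minus control, log2), and the larger gap was at 48 h in 103. In the 226 the median gap was 0.67 at 0 h and -0.21 at 48 h, and the larger gap was at 0 h in 134. Over all transcripts the median gaps were -0.009 and -0.007. The gaps come from the same arrays as the difference and are given as a description.

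Single transcripts show these patterns. FBtr0084647, the largest fall in CP190 cells, read 15324 and 10490 there at 0 h against 2469 and 2139 in control cells, while at 48 h it read 916 and 824 against 1580 and 1917. Its response differed by -3.47 ± 0.27 (adjusted p = 1.25e-04). FBtr0085612 differed at the end instead: it read 1047 and 866, then 1211 and 1154 in CP190 cells, and 583 and 612, then 4679 and 7178 in control cells (-2.97 ± 0.30, adjusted p = 4.39e-04). Both control 0 h values were near background, so the size of this difference is understated. FBtr0071865 started lower and ended higher in CP190 cells, from 569 and 642 to 15123 and 15116, than in control cells, from 1058 and 983 to 4235 and 5975 (2.34 ± 0.21, adjusted p = 2.04e-04). One of its CP190 0 h values was near background. FBtr0100135 went from 1864 and 1760 to 12549 and 15091 in CP190 cells and from 3674 and 3719 to 5757 and 7544 in control cells (2.09 ± 0.17). None of the 44 transcripts with a gene name passed the test of the difference, beside 2.18% of all transcripts. At that share, none among 44 says little about these genes. A difference of responses has a larger SE than a response (0.16 against 0.12 for NaPi-III). This test thus detects less, and not passing does not show equal responses. With the replicate block 1 of the 44 passed, beside 725 of all 16637 transcripts. This was Polr3K/Tcs1, with a difference of 0.62 (adjusted p = 0.0144, against 0.123 without the block). For NaPi-III the interval was -0.20 to 0.52, for sle -0.46 to 0.26 and for mio -0.12 to 0.39.

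**Figure D5:**
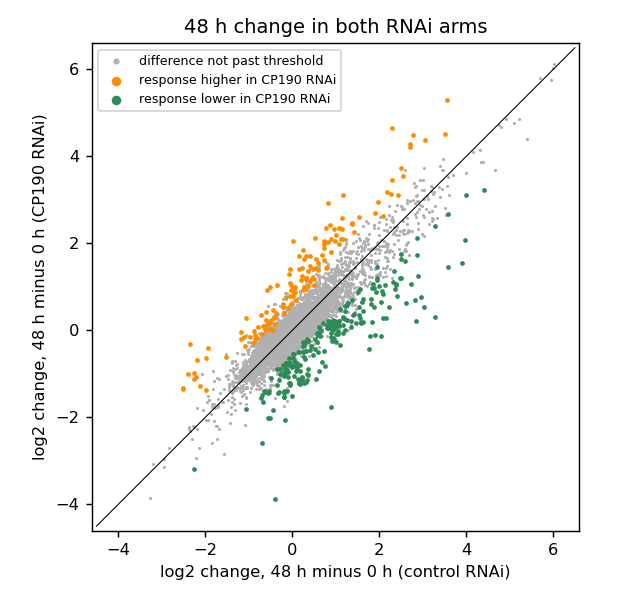
Log2 change from 0 h to 48 h of 20HE in control RNAi cells (horizontal) and CP190 RNAi cells (vertical), 1 point per transcript, with the line of equality. Coloured points are the 137 transcripts with a higher (orange) and the 226 with a lower response (green) in CP190 RNAi cells past the threshold; the other transcripts, in grey, follow the line.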

How the data were processed

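Per the labels, Cy3-labelled total RNA was measured on NimbleGen arrays with 8 probes per gene. The authors deposited linear intensity values, 1 per transcript and array, processed by RMA according to the submitters' processing notes. This method removes background, normalises between arrays and combines probes. No source used here gives its version, the annotation or the build. The spread between probes is unknown, and the number of arrays limits the precision.

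Intensities were log2-transformed without pseudocount or filter. A linear model with a mean for each of 6 groups, over 12 arrays, was fitted in R 4.3.3 using limma 3.58.1 (lmFit, eBayes), leaving 6 residual degrees of freedom. Two-sided p-values were adjusted over 16637 transcripts by Benjamini-Hochberg. The random-sequence control was not tested. The fits were tested on simulated arrays. Errors given with log2 values are standard errors from limma. Alternatives were the replicate block, 2 scalings, the prior, a filter on dim transcripts, fewer arrays and each array left out.

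Differences between replicate 1 and 2 correlated by 0.147 to 0.608 over all 15 pairs of groups, above 0.1 in each, so the labels' numbers were taken as pairs. The main fit does not use these pairs, and its counts, SEs and adjusted p are unpaired. The block that uses them was an alternative. It gave 5774 calls in place of 4410 at 48 h, 229 in place of 117 at 3 h and 725 in place of 363 for the difference of responses. What same-numbered replicates share is not stated.

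The RefSeq table of assembly GCF_000001215.4 listed 44 of the identifiers, 16 under 1 gene and 28 under several. The naming rule took the 16 and, of unnamed identifiers, the 2 largest rises and 2 largest falls of each comparison. Of 17 gene lists, 7 had 1 to 3 named members (HDAC3, His4r and kis for chromatin; Fatp1 and NaPi-III for transport; alpha-Spec, LanA, mio, rdx and sle alone in theirs) and none was tested. Comparisons, members and lists were chosen with earlier results of these data known. No sequences or coordinates are given.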

Additional observations from a re-analysis of the deposited data

Results flagged for a closer look

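The 48 h response differed between the RNAi arms, by a test of the difference itself, for 363 transcripts. Of the transcripts named in the text, 5 were among them. FBtr0084647, FBtr0085612, FBtr0071865 and FBtr0100135 had been named for the size of this difference, so their presence was fixed by the naming rule. FBtr0084647 (-3.47) and FBtr0085612 (-2.97) responded lower in CP190 cells, and FBtr0071865 (2.34), FBtr0100135 (2.09) and FBtr0084169 (1.73) higher, as differences of log2 changes. FBtr0084169 rose from 768 and 711 to 32747 and 25492 in CP190 cells and from 2205 and 2031 to 30123 and 20769 in control cells, so the arms were further apart at 0 h than at 48 h (limma adjusted p = 0.00764). No group has enough samples to look for a sample far from the others.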

How the results depend on the processing

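With only the arrays compared, a trended and robust prior, quantile normalisation, centring or no dim transcripts, the 5 counts of calls stayed within 1.5 times their value. The replicate block gave 229 calls at 3 h and 725 for the difference of responses, and moved no other count by that much. Leaving out 1 array gave 2815 to 4663 calls at 48 h, 2796 to 4640 for 48 h against 3 h, 52 to 134 at 3 h, 3201 to 4686 at 48 h in control cells and 192 to 343 for the difference of responses. The share called in the near-background class was 9.21% with classes from control arrays and 11.0% with its limit at 2-fold, and 37.4% in the low class with that limit; a limit at 2-fold takes transcripts from the low class. Of 774 repeats for single transcripts, 739 stayed on the same side of the threshold and 35 lost the call. Among changes past the threshold 0 reversed. Changes near 0 that did not pass could change sign, as for fend (-0.095 to 0.026) and rdx (-0.253 to 0.097). Signal over background limits the near class, and intensities near the scanner's end limit the brightest.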
